A study of Homo sapiens with 21 samples.

Results

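Pyruvate made by glycolysis enters the citric acid cycle through a short route whose genes are described here in BT-549 cells, an established triple-negative breast cancer (TNBC) line. The 10 genes were chosen by name and found in the raw count table through their Ensembl identifiers, and all 10 were matched among the 42339 genes listed. They encode the 4 pyruvate dehydrogenase kinases (PDK1, PDK2, PDK3 and PDK4), the catalytic subunits of the 2 pyruvate dehydrogenase phosphatases (PDP1 and PDP2), the α and β chains of the E1 component of pyruvate dehydrogenase (PDHA1 and PDHB), and the 2 subunits of the mitochondrial pyruvate carrier (MPC1 and MPC2). All 10 passed the filter on low counts in every comparison.

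The carrier brings pyruvate across the inner mitochondrial membrane, and pyruvate dehydrogenase converts it to acetyl-CoA. The kinases phosphorylate the E1α chain and switch the complex off, while the phosphatases remove the phosphate and switch it on again. PDK1 is known as a target of hypoxia-inducible factors, and PDK4 as a gene of fasting and fatty acid use that FOXO and PPAR factors act on. RNA levels alone show neither the phosphorylation of E1α nor the activity of the complex.

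Total RNA from 21 cultures of BT-549 cells, all of genotype WT, was measured by RNA-seq, with 3 cultures in each of 7 groups. The cultures were 2D cells, 3D cells (mammospheres at serial passage 6), such mammospheres given 0.75 μmol/L GO-203 (a peptide inhibitor of the MUC1-C subunit), passage 6 tet-MUC1shRNA mammospheres with 0.1% DMSO as vehicle or 500 ng/ml doxycycline (DOX), and passage 8 tet-MYCshRNA mammospheres with the same vehicle or DOX dose. Each tet line carried a single DOX-inducible shRNA in a vector selected with puromycin, and the untransduced 2D and 3D cells carried none. The labels give no duration of treatment. DOX given to cells with a scrambled shRNA was not analysed here, so DOX itself and the silencing cannot be told apart. DMSO is recorded for the vehicle cultures and not for the DOX cultures, so it cannot be told apart from these either. The 2D and 3D cells also differed in medium and passage, and these cannot be told apart from growth format.

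Library totals ran from 38026597 to 99751717 counts (median 53548353). Levels are given as CPM, library-size normalized counts scaled by TMM factors over the 21 libraries. Mitochondrial DNA genes took 2.31% to 6.72% of the counts, with 6.36% to 6.72% in MUC1-silenced mammospheres against 2.60% to 2.78% in their vehicle controls. Scaling without these genes left every call on the 10 genes in place in the 4 comparisons, and in the interactions given later it added a call on MPC1 (GO-203 against MUC1 silencing, 0.24, adjusted p = 0.095). Of the markers checked for the label of epithelial breast, KRT8, KRT18, EPCAM and CDH1 stayed at or below 1.55 CPM in every library, while the mesenchymal genes VIM, FN1 and CDH2 were at 1067 to 2507, 452 to 13535 and 11.1 to 466 CPM. The group means of CDH2 were 451 (2D) and 50.2 CPM (3D), and those in the tet-MUC1shRNA line 11.8 with vehicle and 75.1 with DOX. FN1 had means of 460 (2D) and 6590 CPM (3D). From vehicle to DOX, FN1 went from 5209 to 12523 CPM in the tet-MYCshRNA line and from 10223 to 7246 CPM in the tet-MUC1shRNA line. The basal keratin gene KRT5 also varied, with group means of 0.0235 CPM in 2D cells, 23.8 in 3D cells and 94.1 with GO-203, and from vehicle to DOX of 1.20 and 15.4 in the tet-MUC1shRNA line and 5.20 and 66.4 in the tet-MYCshRNA line. Of the markers of other cell types, PTPRC, CD68 and CDH5 stayed at or below 1.49 CPM, and CDH5 had at most 4 counts in a library. The group means of PECAM1 were 0.0118 (2D) and 6.62 CPM (3D), 4.01 and 3.02 with vehicle and DOX in the tet-MUC1shRNA line, 6.79 and 9.40 in the tet-MYCshRNA line, and 6.68 with GO-203. A part of these markers in the results on the 10 genes was not tested. The receptor genes ESR1 and PGR were at or below 1.49 CPM and ERBB2 at 18.2 to 42.3 CPM. As a check of silencing, MUC1 was at 101, 82.4 and 85.3 CPM with vehicle and at 20.2, 21.6 and 23.1 CPM with DOX, and MYC at 446, 425 and 382 CPM with vehicle and at 239, 282 and 304 CPM with DOX. Both fell, MUC1 by 2.06 and MYC by 0.62 on the log2 scale. Each silencing also moved the other gene, since MUC1 rose by 1.25 with MYC silenced (adjusted p = 5.1e-06) and MYC by 0.25 with MUC1 silenced (5.0e-05).

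PDK4, PDK2 and PDK1 had the widest ranges of group means, and bases upstream of the annotated canonical start of each of the 4 kinase genes are shown first, since hypoxia-inducible factors are known to act on PDK1 and MYC was silenced in this study, and these factors read short motifs. The stretches are RefSeq promoter windows on GRCh38.p14, read on the strand of the gene. Those of PDK2 and PDK3 are cut where an annotated exon of that strand begins, and that of PDK4 is the whole window of 250 bases. They cover chr17:50095101-50095284 (PDK2, plus strand), chrX:24465036-24465243 (PDK3, plus strand) and chr7:95596517-95596766 (PDK4, minus strand). For PDK1 the last 30 bases before the canonical start are given without that cut, chr2:172556060-172556089 on the plus strand, and they lie within the first exon of other annotated transcripts of the gene. PDK1 and PDK2 have other annotated starts farther upstream, so that both windows lie inside the spans given for these genes. Capitals mark the HIF core motifs ACGTG and GCGTG or the E-box CACGTG, on either strand.
PDK1: ccctgctgcccgcCACGTccctCACGTacc
PDK2: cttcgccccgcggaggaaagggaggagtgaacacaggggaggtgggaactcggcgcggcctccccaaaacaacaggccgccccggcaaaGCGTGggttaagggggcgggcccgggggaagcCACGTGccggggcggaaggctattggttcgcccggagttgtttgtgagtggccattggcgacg
PDK3: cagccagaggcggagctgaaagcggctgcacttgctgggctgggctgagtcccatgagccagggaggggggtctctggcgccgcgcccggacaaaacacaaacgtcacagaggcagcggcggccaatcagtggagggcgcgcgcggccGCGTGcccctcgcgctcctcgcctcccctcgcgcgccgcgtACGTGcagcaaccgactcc
PDK4: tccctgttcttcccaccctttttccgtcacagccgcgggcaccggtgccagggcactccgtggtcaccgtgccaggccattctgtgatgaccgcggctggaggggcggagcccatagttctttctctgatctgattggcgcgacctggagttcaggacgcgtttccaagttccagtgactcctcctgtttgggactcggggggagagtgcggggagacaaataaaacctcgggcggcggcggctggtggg

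In the 250 bases upstream of its start, PDK1 held ACGTG on the minus strand 17 and 8 bases before the start, printed as CACGT. PDK2 held the E-box, which contains ACGTG on both strands, 129 bases upstream and GCGTG 161 bases upstream. PDK3 held GCGTG 102 bases and ACGTG 61 bases upstream, and PDK4 held none of these letters. Of the 9 genes with a window in the table used, 7 held ACGTG or GCGTG, as did 43.2% of all 35116 windows, and 3 held CACGTG against 6.34% of all windows. A match describes letters only and is no evidence of binding.

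PDK4 (ENSG00000004799.8, chr7:95583499-95596516, minus strand), the kinase known from fasting and fatty acid use, had the widest range of the 10 genes. The 3 libraries of 2D cells held 0, 6 and 6 counts, or 0, 0.107 and 0.106 CPM. In 3D cells the values were 598, 614 and 638 CPM. GO-203-treated 3D cells had 851, 811 and 883 CPM. Every mammosphere library was far above every 2D library, and the 3D and GO-203 libraries did not overlap. Vehicle-treated tet-MUC1shRNA mammospheres had 575, 682 and 644 CPM, and MUC1-silenced ones 840, 844 and 724 CPM. Vehicle-treated tet-MYCshRNA mammospheres had 134, 132 and 137 CPM. The MYC-silenced libraries had 1620, 1252 and 1446 CPM, above all other libraries in the series. The 2 vehicle-treated tet lines thus stood apart in PDK4 without overlap, and differed in passage as well as in shRNA. Among neighbours in the order of means, 3D cells and vehicle-treated tet-MUC1shRNA mammospheres overlapped, as did MUC1-silenced and GO-203-treated ones. In these bulk libraries, fewer cells with a transcript and less of it per cell cannot be told apart.

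PDK1 (ENSG00000152256.14, chr2:172555373-172608669, plus strand), the kinase known from hypoxia, was lowest in 2D cells at 39.3, 43.0 and 40.8 CPM and highest in 3D cells at 164, 168 and 167 CPM, a 4.06-fold difference of means. GO-203-treated cells had 140, 149 and 154 CPM, just below the 3D range. Vehicle-treated tet-MUC1shRNA mammospheres had 116, 104 and 109 CPM, against 47.2, 47.5 and 43.0 CPM with MUC1 silenced. The lowest of the silenced libraries lay just within the range of 2D cells. In the tet-MYCshRNA line the values were 98.5, 108 and 106 CPM with vehicle and 60.9, 66.5 and 58.0 CPM with DOX, again without overlap. The vehicle-treated libraries of the 2 tet lines overlapped each other.

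PDK2 (ENSG00000005882.12, chr17:50094737-50112152, plus strand), a kinase expressed in many tissues, had the lowest level per kilobase of merged exons of the 10 genes in mammospheres, and its CPM values rest on 27 to 365 counts per library. In 2D cells it was at 4.75, 6.50 and 5.31 CPM. The 3D cells had 1.22, 0.654 and 1.55 CPM, and GO-203-treated cells 0.597, 1.59 and 0.929 CPM. These 2 groups overlapped, and both lay below every 2D library. With vehicle the tet-MUC1shRNA line had 0.985, 1.54 and 1.43 CPM, and with DOX 3.88, 3.13 and 3.36 CPM. The tet-MYCshRNA line had 1.05, 1.66 and 0.630 CPM with vehicle and 3.24, 5.81 and 5.86 CPM with DOX. In both tet lines all DOX libraries were above all vehicle libraries. The coefficient of variation reached 48.7% within a group, and 38.6% of the exon bases of PDK2 are shared with SAMD14 on the other strand, so that reads of the 2 genes cannot be told apart if strand was ignored in counting.

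PDK3 (ENSG00000067992.16, chrX:24465244-24550466, plus strand), a kinase known to be little inhibited by pyruvate, moved over the smallest range of the 4 kinases, 2.00-fold between the lowest and the highest group mean. In 2D cells it was at 80.8, 85.4 and 95.7 CPM and in 3D cells at 78.6, 91.2 and 76.5 CPM, so these groups overlapped. GO-203-treated cells were higher, at 108, 103 and 123 CPM. The tet-MUC1shRNA line had 97.8, 83.4 and 93.8 CPM with vehicle and 72.1, 73.3 and 71.9 CPM with DOX, and was lower in every DOX library. The tet-MYCshRNA line moved the other way, from 54.0, 55.4 and 58.5 CPM with vehicle to 111, 109 and 110 CPM with DOX.

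**Figure D1:**
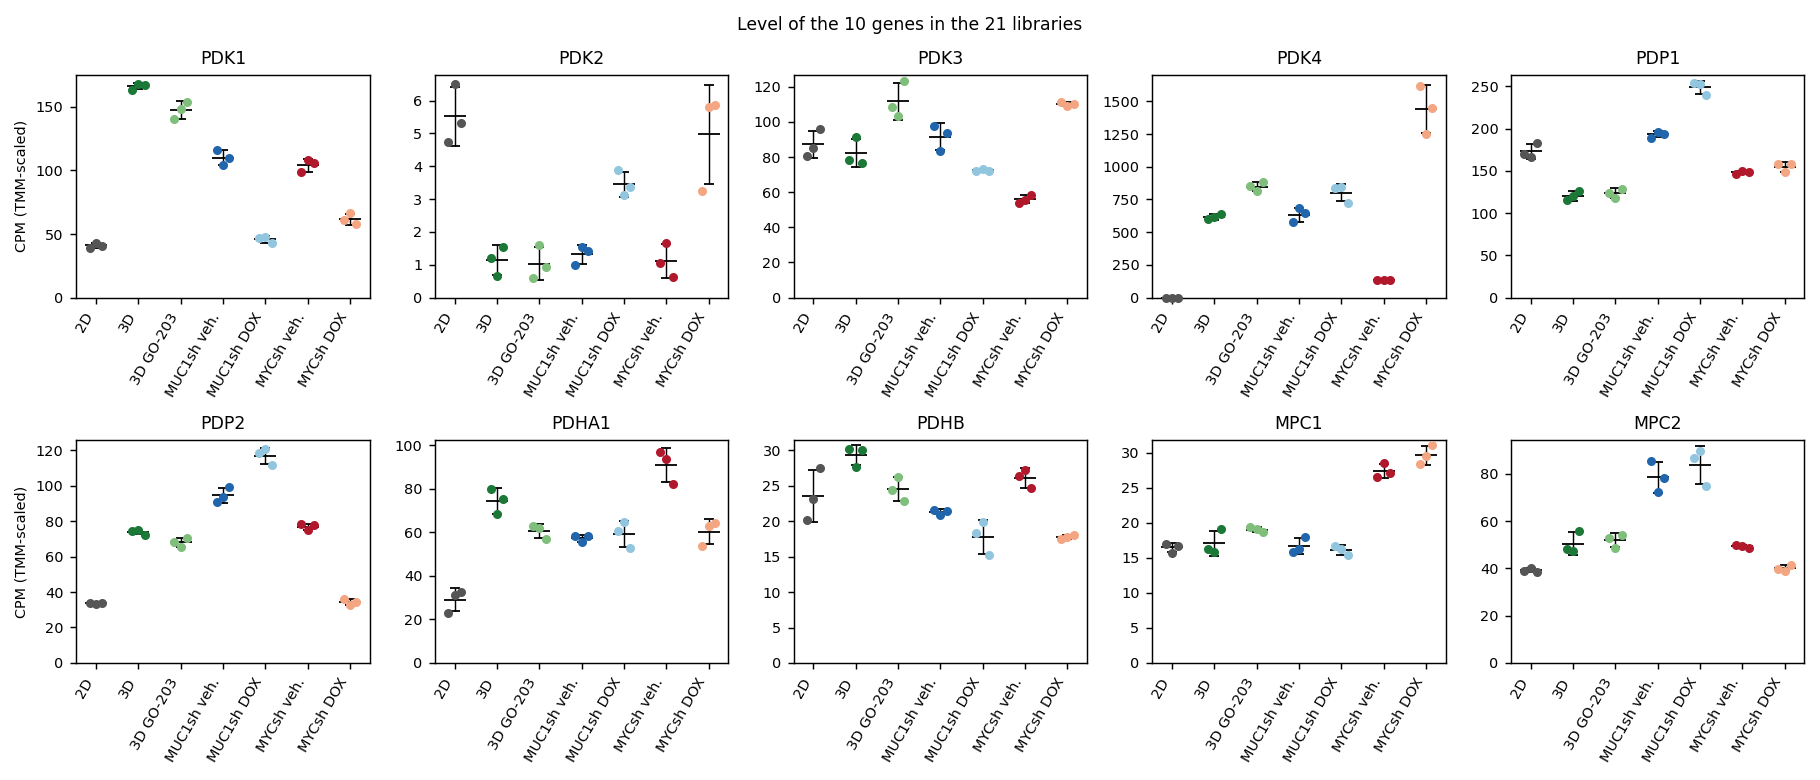
Level of each of the 10 genes (y axis, CPM scaled by TMM, linear from 0, its own scale per panel) in the 21 libraries (points) by group (x axis), with the group mean and SD (black). PDK4 is close to 0 in 2D cells and reaches 1620 CPM in MYC-silenced mammospheres, whereas MPC1 lies between 15.4 and 31.0 CPM throughout.

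Levels of different genes were compared only after division by gene length, here the merged exons of the gene in kilobases. On this scale PDK3 made up 56.9% ± 2.54 (SD, n = 3) of the summed level of the 4 kinases in 2D cells, PDK1 31.5% ± 1.49, PDK2 11.5% ± 1.51 and PDK4 0.171% ± 0.148. In 3D cells PDK4 made up 89.4% ± 0.397, PDK1 7.39% ± 0.148, PDK3 3.10% ± 0.321 and PDK2 0.137% ± 0.0528. On the merged exon scale the leading kinase RNA was therefore PDK3 in 2D cells and PDK4 in all 6 mammosphere groups. The share of PDK4 was 91.9% with GO-203, 91.5% and 95.7% in the tet-MUC1shRNA line with vehicle and DOX, and 73.9% and 96.5% in the tet-MYCshRNA line. The share of PDK1 was 4.89% and 1.68% with vehicle and DOX in the tet-MUC1shRNA line and 17.6% and 1.29% in the tet-MYCshRNA line.

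These shares depend on the length used. With the mean length of the coding transcripts, PDK4 made up 73.9% in 3D cells and 49.1% in vehicle-treated tet-MYCshRNA mammospheres, where PDK1 made up 39.7%, and PDK3 and PDK1 were close in 2D cells at 43.4% and 42.8%. Their order turned in 2 of the 3 libraries of 2D cells, where PDK1 had 44.1% and 43.3% and PDK3 43.2% and 41.0%, so that no leading kinase of 2D cells can be given under both lengths. PDK4 had the largest mean share in the 6 mammosphere groups under both lengths.

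The summed level of the kinases relative to that of the 2 phosphatases was 0.252 ± 0.0151 (SD, n = 3) in 2D cells and 4.98 ± 0.00514 in 3D cells on the merged exon scale. It was 6.70 ± 0.0297 with GO-203. In the tet-MUC1shRNA line the ratio was 3.31 ± 0.182 with vehicle and 3.14 ± 0.157 with DOX, and these groups overlapped. In the tet-MYCshRNA line it was 1.12 ± 0.0129 with vehicle and 10.3 ± 0.920 with DOX. With coding transcript lengths the same 7 values were 0.244, 2.11, 2.72, 1.37, 1.21, 0.600 and 4.16, in the same group order. On that scale the tet-MUC1shRNA libraries did not overlap, at 1.32 to 1.42 with vehicle and 1.14 to 1.24 with DOX. The ratio was lowest in 2D cells and highest in MYC-silenced mammospheres under both lengths.

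**Figure D2:**
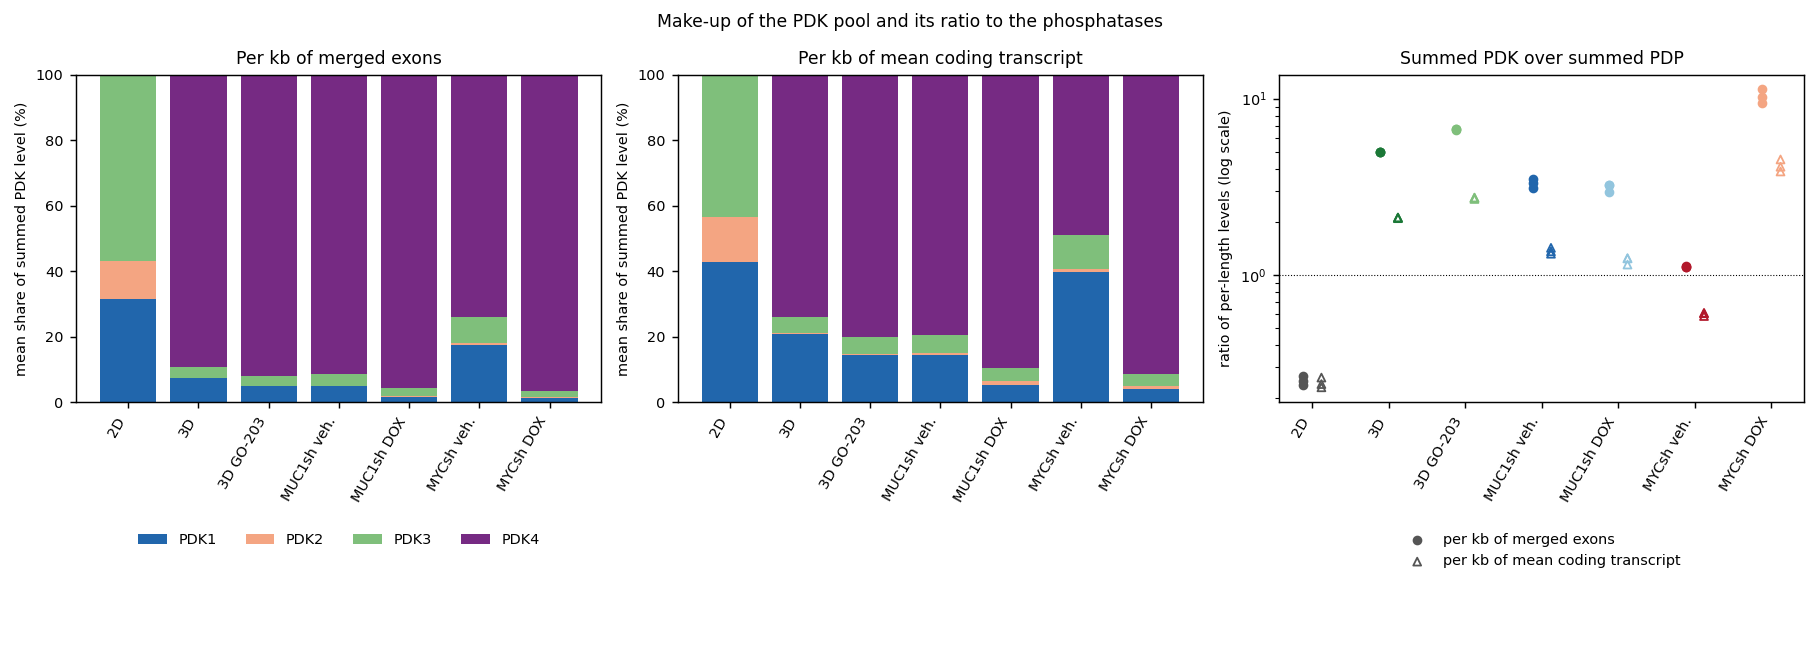
Mean share of each kinase in the summed PDK level of a group (left and middle, %, 3 libraries a group, under 2 gene lengths) and the ratio of summed PDK to summed PDP level in each library (right, log scale, filled circles for merged exons, open triangles for mean coding transcripts). PDK4 makes up 0.171% of the 2D bar and 73.9% to 96.5% of the mammosphere bars on the left.

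The phosphatase genes had distinct patterns. PDP2 (ENSG00000172840.7, chr16:66878589-66895754, plus strand), the isoform that calcium does not stimulate, was at 33.8, 33.3 and 33.7 CPM in 2D cells and at 74.5, 74.9 and 72.3 CPM in 3D cells. With GO-203 it was at 68.1, 65.7 and 70.7 CPM. In the tet-MUC1shRNA line it was at 90.7, 93.7 and 99.1 CPM with vehicle and at 118, 120 and 112 CPM with DOX, the highest group of the series. In the tet-MYCshRNA line it was at 78.1, 75.0 and 77.5 CPM with vehicle and at 35.8, 32.7 and 34.5 CPM with DOX, overlapping the 2D libraries.

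PDP1 (ENSG00000164951.16, chr8:93857807-93926068, plus strand), the calcium-stimulated isoform, was at 170, 166 and 183 CPM in 2D cells and at 115, 120 and 126 CPM in 3D cells. With GO-203 it was at 124, 118 and 129 CPM, which overlapped the 3D cells. The tet-MUC1shRNA line had 190, 197 and 194 CPM with vehicle and 254, 253 and 240 CPM with DOX. The tet-MYCshRNA line had 146, 150 and 149 CPM with vehicle and 158, 148 and 158 CPM with DOX, and these overlapped. On the merged exon scale PDP1 made up 70.5% to 88.3% of the summed phosphatase level over the 7 group means, with the highest share in 2D cells and the next, 86.9%, in MYC-silenced mammospheres.

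PDHA1 (ENSG00000131828.14, chrX:19343893-19361718, plus strand), the E1α chain that the kinases phosphorylate, was at 23.2, 31.3 and 32.7 CPM in 2D cells and at 79.9, 68.3 and 75.2 CPM in 3D cells. With GO-203 it was at 62.7, 62.0 and 57.2 CPM. The tet-MUC1shRNA line had 58.1, 55.4 and 58.3 CPM with vehicle and 60.5, 64.7 and 52.7 CPM with DOX, which overlapped. The tet-MYCshRNA line had 97.0, 93.8 and 82.3 CPM with vehicle and 53.7, 63.1 and 64.4 CPM with DOX, which did not. Of its exon bases 19.3% are shared with MAP3K15 on the other strand.

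PDHB (ENSG00000168291.13, chr3:58427630-58433857, minus strand), the E1β chain, ranged less, 1.65-fold between the lowest and the highest group mean. It was at 20.1, 23.1 and 27.5 CPM in 2D cells, at 27.6 to 30.2 CPM in 3D cells and at 24.5, 26.3 and 22.8 CPM with GO-203. The tet-MUC1shRNA line went from 21.6, 20.9 and 21.5 CPM with vehicle to 18.4, 19.9 and 15.2 CPM with DOX, and the tet-MYCshRNA line from 26.4, 27.3 and 24.6 CPM to 17.4, 17.8 and 18.0 CPM. Vehicle and DOX libraries did not overlap in either line. The per-length level of PDHA1 relative to PDHB was 1.17 ± 0.103 in 2D cells and between 2.36 and 3.32 in the mammosphere group means, on the merged exon scale. With coding transcript lengths it was 0.607 in 2D cells and 1.22 to 1.72 in the mammosphere group means, so that which chain was higher in 2D cells depends on the length used. The 2 chains are assembled in equal numbers in the protein, which RNA levels do not show.

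The carrier genes differed from each other. MPC1 (ENSG00000060762.19, chr6:166364919-166383013, minus strand) was at 15.7 to 17.0 CPM in 2D cells, 15.8 to 19.1 in 3D cells, 18.7 to 19.4 with GO-203, 15.9 to 18.0 and 15.4 to 16.7 in the tet-MUC1shRNA line with vehicle and DOX, and 26.5 to 28.5 and 28.4 to 31.0 in the tet-MYCshRNA line. Only the tet-MYCshRNA line stood apart, under both treatments. MPC2 (ENSG00000143158.11, chr1:167916675-167937072, minus strand) was at 38.5 to 40.0 CPM in 2D cells, 47.4 to 56.0 in 3D cells and 48.7 to 54.3 with GO-203. It was highest in the tet-MUC1shRNA line, at 72.1 to 85.2 CPM with vehicle and 74.8 to 89.8 with DOX, and in the tet-MYCshRNA line it was at 48.8 to 49.8 with vehicle and 38.8 to 41.3 with DOX. The per-length ratio of MPC1 to MPC2 (merged exons) was 0.331 to 0.366 in the 2 group means of the tet-MUC1shRNA line and 0.949 to 1.27 in those of the tet-MYCshRNA line. Of the exon bases of MPC2, 21.8% are shared with DCAF6 on the other strand.

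The comparison of 3D with 2D cells addressed how mammosphere growth is accompanied by changes in metabolism. A gene was called at an adjusted p below 0.1, from edgeR's quasi-likelihood test on the 6 libraries with Benjamini-Hochberg adjustment over all genes tested. Of the 10 genes, 6 were called higher and 2 lower. Over all 19190 genes tested, 32% were called higher and 31.7% lower, so that a call by itself was common here. For PDK4 the fit gave a log2 fold change of 13.0 (adjusted p = 2.5e-18). That value depends on the prior count, since 2D cells held 12 counts in all. Standard errors given here are the absolute log2 fold change divided by the square root of the test's F statistic. For PDK4 this gave 0.16, which understates the counting error of so few 2D counts. The ratio of the mean 3D level to the pooled 2D level was 8103, with a 95% interval of 4639 to 15682 from the exact Poisson interval of those counts, which covers counting error only. PDK1 rose by 2.08 (standard error 0.06, adjusted p = 2.3e-14), PDHA1 by 1.41 (0.10, 3.1e-09) and PDP2 by 1.19 (0.06, 3.4e-11).

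Smaller rises were those of MPC2 at 0.42 (standard error 0.07, adjusted p = 8.8e-05) and PDHB at 0.37 (0.09, 0.0029). PDK2 fell by 2.20 (standard error 0.24, adjusted p = 7.7e-07) and PDP1 by 0.47 (0.06, 4.6e-06). PDK3 was at -0.03 (standard error 0.08, adjusted p = 0.73) and MPC1 had 0.11 (0.09, 0.34), neither called. With an absolute log2 fold change above 1.5 required as well, PDK4, PDK1 and PDK2 remained, 3 of the 10 genes, against 16.2% of all genes. Kinase genes thus had the largest changes of the group in both directions, and the opposite moves of PDP1 and PDP2 left the summed phosphatase level per kilobase at 35.0 ± 1.66 CPM (SD, n = 3) in 2D and 30.5 ± 0.856 CPM in 3D cells with merged exons. With coding transcript lengths the libraries of these groups overlapped, at 110 to 120 and 107 to 112 CPM per kilobase.

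Silencing of MUC1 in mammospheres addressed which genes depend on MUC1-C in these cells. PDK1 fell by 1.27 on the log2 scale (standard error 0.05, adjusted p = 1.6e-14), and PDK2 rose by 1.36 (0.20, 4.7e-06). PDK4 rose by 0.33 (standard error 0.05, adjusted p = 2.9e-05), PDP1 by 0.35 (0.04, 2.0e-07) and PDP2 by 0.29 (0.05, 1.7e-05). PDK3 fell by 0.35 (standard error 0.05, adjusted p = 1.3e-05) and PDHB by 0.27 (0.08, 0.0068). PDHA1 at 0.04, MPC1 at -0.06 and MPC2 at 0.08 were not called (adjusted p = 0.57, 0.50 and 0.24). MPC2 was called higher when genes under 10 counts in any library were dropped (0.14, adjusted p = 0.053), without vehicle replicate 1 (0.14, 0.046) and without DOX replicate 3 (0.14, 0.066). In all, 4 genes were called higher and 3 lower, in a comparison in which 30.7% of 19220 genes were called higher and 31.6% lower. With a fold change past 1.5 (log2) required, 0 of the 10 were called, against 8.82% of all genes.

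Both phosphatases and PDK4 thus rose together by 0.29 to 0.35, while PDK1 fell most. Scaling by library size alone moved the median of all genes by 0.16 in this comparison, and with it the call on PDHB was lost (-0.10, adjusted p = 0.26) while PDHA1 and MPC2 were called higher (0.21, adjusted p = 0.0030, and 0.25, adjusted p = 6.0e-04). Among the other 7 genes, MPC1 had 0.10 in place of -0.06. The remaining 6 kept their direction and their call, but PDK3 had -0.18 in place of -0.35, and PDP2 0.46 in place of 0.29.

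GO-203 was compared with the same untreated 3D libraries that entered the comparison with 2D cells. PDK4 rose by 0.48 on the log2 scale (standard error 0.05, adjusted p = 2.8e-07) and PDK3 by 0.46 (0.07, 8.6e-05). PDHA1 fell by 0.28 (standard error 0.07, adjusted p = 0.0042), PDHB by 0.24 (0.07, 0.022) and PDK1 by 0.16 (0.06, 0.060). The other 5 genes were not called, with log2 fold changes between -0.15 (PDK2) and 0.17 (MPC1) and adjusted p between 0.17 and 0.82. These are 2 genes called higher and 3 lower, where 11.1% of 18488 genes were called higher and 12.9% lower. Past a log2 fold change of 1.5, 0 of the 10 genes were called, against 0.757% of all genes.

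The call on PDK1 with GO-203 was lost when any of the 3 untreated replicates was left out (adjusted p = 0.12, 0.14 and 0.12) and without GO-203 replicate 1 (0.24). That on PDHB was lost without GO-203 replicate 3 (adjusted p = 0.11). MPC1 was called higher at 0.26 without 3D replicate 3 (adjusted p = 0.044). The rises of PDK4 and PDK3 and the fall of PDHA1 passed in each of these 6 fits.

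Silencing of MYC was done in passage 8 mammospheres, in which MYC RNA itself fell by 0.62. PDK4 rose by 3.41 on the log2 scale (standard error 0.10, adjusted p = 6.3e-09), from the lowest mammosphere level of that gene to the highest. PDK2 rose by 2.11 (standard error 0.32, adjusted p = 2.7e-04) and PDK3 by 0.96 (0.07, 1.3e-06), while PDK1 fell by 0.77 (0.08, 1.6e-05). PDP2 fell by 1.18 (standard error 0.07, adjusted p = 5.5e-07), PDHA1 by 0.61 (0.08, 1.0e-04), PDHB by 0.57 (0.08, 2.1e-04) and MPC2 by 0.32 (0.07, 0.0028). PDP1 at 0.05 and MPC1 at 0.10 were not called (adjusted p = 0.55 and 0.32). The counts were 3 genes higher and 5 lower, in a comparison in which 30.3% of 19951 genes were called higher and 28.1% lower. PDK4 and PDK2 passed the fold threshold as well, 2 of the 10 genes, against 10.5% of all genes.

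PDK2, PDK3 and PDK4 therefore rose, and both E1 chains, PDP2, MPC2 and PDK1 fell, with MYC silenced. The number called stayed at 8 of the 10 genes with each library left out in turn.

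**Figure D3:**
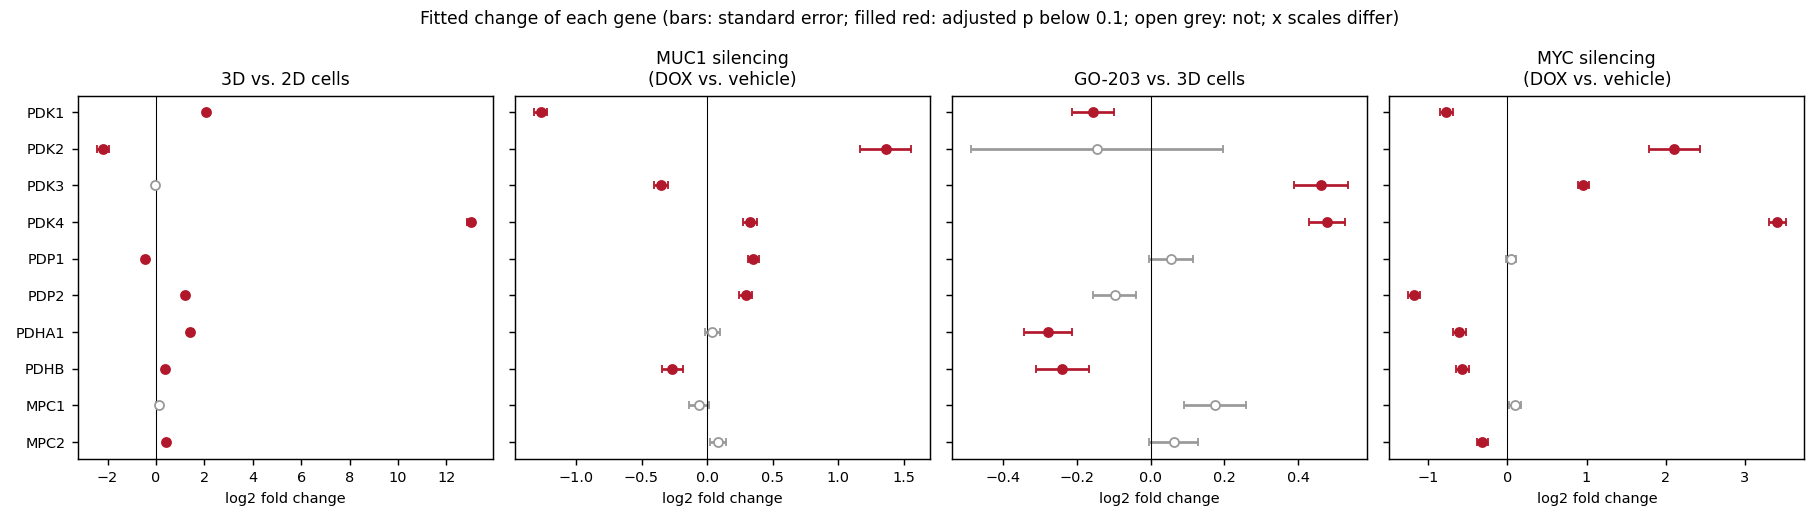
Fitted log2 fold change (x axis, its own scale per panel) of the 10 genes (y axis) in the 4 comparisons, with the standard error as bars and genes called at an adjusted p below 0.1 in filled red. PDK1 is right of 0 in 3D cells and left of it under MUC1 silencing, GO-203 and MYC silencing, and PDK4 is right of 0 in all 4 panels.

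Whether the 2 silencings acted differently was tested as an interaction over 12 libraries, the effect of MYC silencing minus that of MUC1 silencing. The lines differed in passage as well as in the gene silenced, and the depth of silencing was 2.06 for MUC1 and 0.62 for MYC on the log2 scale. MUC1 rose by 1.25 with MYC silenced and MYC by 0.25 with MUC1 silenced, so that the difference is not one between silencing either gene with the other unchanged. These features cannot be told apart in it. PDK4 differed by 3.09 (standard error 0.12, adjusted p = 1.4e-12), rising under both silencings. PDP2 differed by -1.46 (standard error 0.08, adjusted p = 1.5e-10) and PDK3 by 1.32 (0.09, 1.4e-09), and these 2 genes were called in opposite directions by the 2 silencings. PDK1 differed by 0.51 (standard error 0.10, adjusted p = 2.2e-04), with the larger fall under MUC1 silencing. PDHA1 at -0.63 (standard error 0.11, adjusted p = 9.6e-05), MPC2 at -0.39 (0.10, 0.0032) and PDP1 at -0.29 (0.07, 0.0019) were called too. PDHB was called at -0.29 (standard error 0.12, adjusted p = 0.058), and this call was lost in 6 of the 12 fits without 1 library and in the fit of all 21 libraries (adjusted p = 0.10).

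The difference was not called for PDK2 (0.75, standard error 0.40, adjusted p = 0.13) or MPC1 (0.18, 0.11, 0.20). For PDK2 it was called in 3 of the 12 fits that left out 1 library, with values from 0.50 to 1.18 over the 12, and without a filter beyond 1 count (0.68, adjusted p = 0.076). In all 8 of the 10 genes were called, where 52.9% of 21585 genes were.

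**Figure D4:**
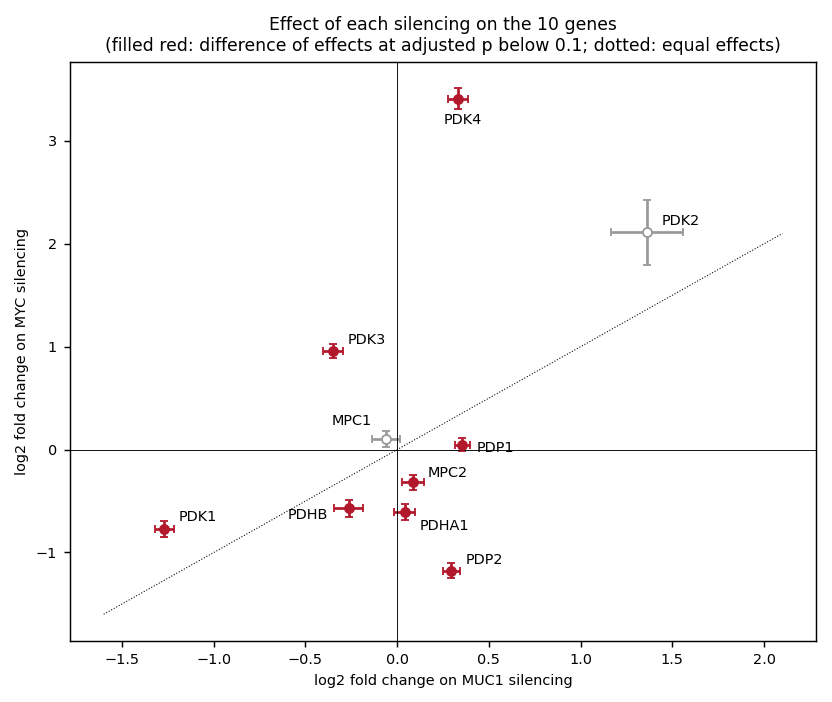
Log2 fold change of each gene under MUC1 silencing (x axis) and MYC silencing (y axis), with standard errors, a dotted line of equal effects, and filled red points where the difference of effects had an adjusted p below 0.1. PDK3 and PDP2 lie in opposite quadrants, and PDK4 lies farthest above the line.

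GO-203 and MUC1 silencing, both directed at MUC1, were compared in the same way, the GO-203 effect minus that of silencing. The lines and the kind of treatment differ between them. PDK1 differed by 1.11 (standard error 0.07, adjusted p = 3.8e-12), falling by 0.16 with GO-203 and by 1.27 with silencing. PDK3 differed by 0.81 (standard error 0.10, adjusted p = 2.5e-07), being called higher with GO-203 and lower with silencing. PDK2 differed by -1.53 (standard error 0.41, adjusted p = 0.0041), PDP2 by -0.40 (0.07, 9.3e-05), PDHA1 by -0.32 (0.09, 0.0070) and PDP1 by -0.30 (0.07, 9.5e-04). PDK4 at 0.14 (standard error 0.08, adjusted p = 0.16), PDHB at 0.02 (0.11, 0.90), MPC1 at 0.23 (0.11, 0.11) and MPC2 at -0.03 (0.10, 0.88) were not called. PDK4 was called without GO-203 replicate 2 (0.18, adjusted p = 0.089) and without tet-MUC1shRNA vehicle replicate 1 (0.21, 0.026), and MPC1 without 3D replicate 3 (0.33, 0.021) and without tet-MUC1shRNA vehicle replicate 1 (0.27, 0.087). That made 6 of the 10 genes, where 44.9% of 20829 genes were called. MUC1 RNA itself rose by 0.33 with GO-203, which acts on the protein.

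The rest of the complex and its cofactor supply formed a list of 9 genes. In 3D cells 6 were called higher and 1 lower, with a median log2 fold change of 0.23 against -0.01 over all genes. The shares of all genes called, to be read beside the counts of this list and the next ones, were 32% higher and 31.7% lower in 3D cells, 30.7% and 31.6% with MUC1 silenced, 11.1% and 12.9% with GO-203, and 30.3% and 28.1% with MYC silenced. With MUC1 silenced 0 rose and 5 fell (median -0.09, all genes 0.02), with GO-203 0 rose and 3 fell (median -0.11, all genes 0.02), and with MYC silenced 2 rose and 5 fell (median -0.42, all genes 0.01). The median with MUC1 silenced and its fall of DLD (-0.09, adjusted p = 0.092) are small. Both are below the 0.16 by which scaling by library size moved the median of all genes there. DLAT, the E2 component that carries the lipoyl groups, fell by 1.23 with MYC silenced (standard error 0.06, adjusted p = 1.8e-07), from 166, 174 and 168 CPM to 74.7, 69.0 and 75.5 CPM. DLD, the E3 component, fell by 0.60 and LIAS, the lipoyl synthase, by 0.89 with MYC silenced (adjusted p = 1.8e-05 and 5.3e-05).

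Other routes of pyruvate were followed over 14 genes, of which 12 were tested and MPC1L and PDHA2 were not. In 3D cells 8 rose and 2 fell (median 0.67), beside the same medians and shares over all genes as above, with MUC1 silenced 2 rose and 8 fell (median -0.23), with GO-203 0 rose and 4 fell (median -0.07), and with MYC silenced 2 rose and 4 fell (median -0.11). The fall of ME2 with MUC1 silenced (-0.10, adjusted p = 0.072) is also below that shift of 0.16. LDHA, the lactate dehydrogenase subunit that favours lactate formation, rose by 1.21 in 3D cells (adjusted p = 2.8e-11) and fell by 0.88 with MUC1 silenced (1.2e-11), while with MYC silenced it was at -0.01 (0.87). PC, pyruvate carboxylase, rose by 2.14 and the lactate exporter SLC16A3 by 3.67 in 3D cells (adjusted p = 2.3e-12 and 1.9e-09). GPT2, the mitochondrial alanine aminotransferase, fell by 1.57 with MUC1 silenced (adjusted p = 2.7e-13), and SLC16A1, a monocarboxylate transporter, by 1.23 with MYC silenced (7.9e-08).

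Among 11 regulators known to act on kinase transcription, 7 were called higher and 2 lower in 3D cells (median 1.37), 4 and 4 with MUC1 silenced (median 0.03), 3 and 3 with GO-203 (median 0.10), and 9 and 2 with MYC silenced (median 0.75). The same shares of all genes apply here, and MYC is itself among the 11, so that 1 of the 2 called lower with MYC silenced is the silenced gene. FOXO1, a factor known to act on PDK4, was at 0.803, 0.872 and 1.11 CPM in 2D cells and at 107, 120 and 106 CPM in 3D cells. With GO-203 it was at 158, 170 and 181 CPM. It went from 110, 111 and 111 CPM to 158, 148 and 135 CPM with MUC1 silenced and from 54.7, 56.7 and 62.9 CPM to 280, 259 and 284 CPM with MYC silenced. FOXO1 was called higher in each of the 4 comparisons, by 6.94, 0.40, 0.63 and 2.22 in the order 3D cells, MUC1 silencing, GO-203 and MYC silencing. The values of PDK4 in the same order were 13.0, 0.33, 0.48 and 3.41, and 3D cells entered the first and the third of these. Some other factors of the list moved otherwise. With MUC1 silenced, where PDK4 rose, PPARA fell by 1.13 (adjusted p = 4.8e-13), PPARG by 0.86 (1.9e-12) and FOXO3 by 0.19 (6.4e-04), while PPARD rose by 0.57 (1.1e-06). A part of any of these factors in the level of PDK4 was not tested.

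HIF1A RNA fell by 0.79 in 3D cells (adjusted p = 1.2e-09) and by 0.16 with MUC1 silenced (0.0020), where PDK1 rose and fell. With MYC silenced, where PDK1 fell, it was called higher at 0.13 (adjusted p = 0.074), and with GO-203 it had 0.11, not called (0.21). The changes of HIF1A and FOXO3 with MUC1 silenced are close in size to the 0.16 by which scaling by library size moved the median of all genes. EPAS1, which encodes HIF-2α, rose by 3.18 in 3D cells (adjusted p = 2.5e-16), where PDK1 rose. It also rose by 0.29 with MUC1 silenced (adjusted p = 4.0e-06) and by 0.91 with MYC silenced (1.3e-06), where PDK1 fell. With GO-203, where PDK1 fell by 0.16, EPAS1 fell by 0.54 (1.9e-07). A part of HIF1A or EPAS1 in the level of PDK1 was not tested, and RNA levels do not show the amount of either protein. PPARG rose by 5.01 in 3D cells (adjusted p = 9.3e-18) and by 0.97 with MYC silenced (4.6e-07), with 0.11 for GO-203, not called (0.18). PPARGC1A, a coactivator of mitochondrial genes, rose by 5.69 with MYC silenced (1.3e-07), from at most 0.189 to at least 5.52 CPM. It was also called higher with GO-203 (1.37, adjusted p = 7.0e-04). In 3D cells (-0.10, adjusted p = 0.83) and with MUC1 silenced (0.77, 0.12) it was not called.

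Likeness of pattern was measured as the root mean square difference of centred log2 group means over the 7 groups, among 13587 other genes. Before the log 0.5 CPM was added, which narrows the ranges of PDK2 and PDK4, whose lowest levels are near 0. Without that addition the highest group mean was 4.06-fold the lowest for PDK1 and 5.32-fold for PDK2. For PDK1 the nearest were GOLGA8A at 0.0666, HK2P1 at 0.168 and ENSG00000273521 at 0.177, where PDK1 itself ranged over 2.01. For PDK2, also ranging over 2.01, they were RAPGEF2 at 0.209, SGK3 at 0.244 and SLC26A2 at 0.260. For PDK4, ranging over 11.3, the nearest were farther away, SRPX at 0.931, ABLIM3 at 0.937 and GLUL at 0.953. These distances describe 7 group means and were given no test.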

How the data were processed

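RNA-seq was done on 21 cultures, and for every library the authors deposited the raw count of each gene, without normalization, made with STAR (version 2.7.3a in the submitters' processing notes) on GRCh38 and with featureCounts. The gene annotation used for counting, its use of strand and its treatment of multi-mapping reads are not given in the sources used here. Empty cells, 4952 to 7587 genes in blocks of libraries, were read as 0, and none concerned the 10 genes. Library totals were 38026597 to 99751717 counts. Counting error is largest for PDK2 and for PDK4 in 2D cells, and for several other genes in single groups the spread of 3 cultures was no larger than counting error alone would give. All 21 pairs of replicates were farther apart than counting noise (chi-square per degree of freedom 4.36 to 52.8). They are separate cultures of 1 line, and p-values measure the spread between these.

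In R 4.3.3, each comparison was fitted on its own libraries with edgeR 4.0.16 (filterByExpr, TMM, quasi-likelihood test, Benjamini-Hochberg adjustment), the interactions on 12 libraries. DESeq2 1.42.0 served as an alternative, beside other scalings, filters, thresholds, a fit of all 21 libraries, the replicate block and leaving out each library. No covariate was used, and no sample was left out. Gene identifiers are those of the count table, gene positions those of GENCODE release 44 on GRCh38, and promoter windows those of RefSeq on GRCh38.p14, the window nearest to the canonical start. Motifs were searched on both strands. Steps were tested on simulated data with 200 changed genes. For likeness, genes with a mean of at least 1 CPM were used and 0.5 CPM was added before the log. The genes named are the 10, those of the lists that were called or largest, the 3 nearest genes by likeness of the 3 with the widest range, and MUC1 and MYC. PPARGC1A, FOXO1 and the other list genes given with values were picked from the lists after their values were seen. The values of 1 gene counted in the lists are not reported here. The 10 genes and all lists were chosen with earlier results of these data known. Figures were drawn with matplotlib 3.10.9.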

Additional observations from a re-analysis of the deposited data

Results flagged for a closer look

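The effects of MUC1 and MYC silencing differed for 8 of the 10 genes by the interaction test (edgeR, adjusted p below 0.1), given as the MYC effect minus the MUC1 effect on the log2 scale. The differences were 3.09 for PDK4, 1.32 for PDK3, 0.51 for PDK1, -0.29 for PDP1, -1.46 for PDP2, -0.63 for PDHA1, -0.29 for PDHB and -0.39 for MPC2. Of all genes tested, 52.9% differed in this way. The call on PDHB (adjusted p = 0.058) was lost in 6 of the 12 fits without 1 library and in the fit of all 21 libraries. PDK3 and PDP2 were called in opposite directions by the 2 silencings. The passage of the lines, 6 and 8, and the depth of silencing cannot be told apart from the gene silenced, and MUC1 rose by 1.25 with MYC silenced.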

How the results depend on the processing

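Of 479 fitted changes of the 10 genes recomputed with another tool, scaling, filter or set of libraries, 466 kept their direction and side of the threshold. Of 480 recomputed without a library, 445 did, 11 calls were lost, 10 were gained and 14 values that had not been called changed sign. With an absolute log2 fold change above 1.5 also required, 3 genes were called in 3D cells and 2 with MYC silenced. With MUC1 silenced and with GO-203, 0 were called. Of all genes, 16.2% in 3D cells, 10.5% with MYC silenced, 8.82% with MUC1 silenced and 0.757% with GO-203 were called in this way. In each interaction 1 gene was called, and the share of all genes was not computed there. At an adjusted p below 0.1 alone and without a library each, the counts were 8 to 8, 7 to 8, 4 to 5, 8 to 8, and 7 to 9 and 6 to 8 in the interactions. With library size alone, which moved the median of all genes by 0.16 under MUC1 silencing and by -0.20 and -0.15 in the interactions of MYC and GO-203 with it, MPC1 was at 0.10 under MUC1 silencing and at -0.028 in the interaction of the 2 silencings, and PDK4 at -0.0094 and PDHB at -0.13 in that of GO-203. In the latter, PDHB was at -0.0057 without a filter and at -0.024 with at least 10 counts in every library. All these values that changed sign were uncalled. Called values of the interaction of the 2 silencings moved in size over the 8 alternative settings. PDK1 lay between 0.31 and 0.54, PDP1 between -0.50 and -0.26 and MPC2 between -0.59 and -0.36, and each stayed called. PDHB lay between -0.49 and -0.26, with its call lost in 1 setting. The filter of 10 counts dropped PDK4 from the comparison of 3D with 2D cells. Leaving out a library moved PDK3 in 3D cells between -0.095 and 0.032, PDK2 with GO-203 between -0.56 and 0.15, and in the interaction with GO-203 PDHB between -0.066 and 0.10 and MPC2 between -0.089 and 0.061. Under MUC1 silencing MPC1 lay between -0.11 and 0.00059 and PDHA1 between -0.0096 and 0.10. The cause of these changes was not tested.

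Replicate numbers do not pair the cultures: the mean correlation of same-numbered deviations was -0.052, 0.039, 0.13 and -0.23 in the 4 comparisons. With the replicate block 8, 7, 5 and 8 genes were called, and 8 and 6 in the interactions, as without it, and the block changed no call.

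With mean coding transcript lengths, the shares of the summed kinase level in the order PDK1, PDK2, PDK3 and PDK4 were 42.8%, 13.7%, 43.4% and 0.0684% in 2D cells, 20.9%, 0.341%, 4.90% and 73.9% in 3D cells, and 14.5%, 0.246%, 5.24% and 80.0% with GO-203. They were 14.5%, 0.410%, 5.75% and 79.4% with vehicle and 5.36%, 0.965%, 4.04% and 89.6% with DOX in the tet-MUC1shRNA line. In the tet-MYCshRNA line they were 39.7%, 1.02%, 10.2% and 49.1% with vehicle and 4.16%, 0.811%, 3.51% and 91.5% with DOX. Depth limits mainly PDK2 and PDK4 in 2D cells.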
